A study of Mus musculus with 88 samples.

Results

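The Cyp4 genes described here are 7 mouse cytochrome P450 genes: Cyp4a10, Cyp4a14, Cyp4a31, Cyp4b1, Cyp4f13, Cyp4f14 and Cyp4f15. They were followed over 6 tissues and 4 irradiation setups with every array probe that carries 1 of these gene symbols. Of the 7 genes, 6 had a probe and each had 1, so that 6 of the 25697 probes on the array are described. No probe carried the symbol Cyp4a10. The family was chosen by the signal of the Cyp4a31 probe, which had differed between the kidney cortices of groups C and B, so the values of that difference are given as a description and without a test.

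Tissue RNA came from 14 female nude mice of the BALB/c strain CAnN.Cg-Foxn1nu/Crl, aged 4 months, and was measured on Illumina MouseRef-8 BeadChips. This athymic strain lacks functional Foxn1 and has few T lymphocytes. All 14 mice, the sham-irradiated ones included, carried this deficiency and were anesthetized, and all were killed 24 h after 4 MV photon irradiation with 2 Gy or after sham irradiation with 0 Gy. In group C (3 mice) the collum, thorax and abdomen were in the field, in group B (3 mice) the thorax and abdomen, and in group A (3 mice) the collum alone, which holds the thyroid. The reference was 5 sham-irradiated mice. Kidneys, liver, lungs and spleen thus lay inside the field in groups C and B and outside it in group A. The mice had been assigned to groups by body geometry, and replicates are separate mice.

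Cyp4 enzymes add a hydroxyl group to the omega end of fatty acids, the end opposite the carboxyl group, which opens a route to dicarboxylic acids. The Cyp4a enzymes act on medium- and long-chain fatty acids including arachidonic acid, whose hydroxylated product is vasoactive in the kidney, and in mice Cyp4a10 and Cyp4a14 are classic targets of the fatty acid receptor PPAR alpha in liver and kidney. Cyp4b1 acts on shorter fatty acids and on foreign compounds and is known from the lung, and the Cyp4f enzymes act on long-chain fatty acids, leukotrienes and, for Cyp4f14, vitamin E.

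In the gene table of RefSeq, Cyp4a14, Cyp4a10, Cyp4a31 and Cyp4b1 lie in this order in a cluster on chromosome 4, interspersed with other Cyp4 genes and pseudogenes. Cyp4f15, Cyp4f14 and Cyp4f13 are neighbours among the Cyp4 genes of chromosome 17. Cyp4a31, Cyp4a10 and Cyp4a32 are close in sequence, and whether the Cyp4a31 probe also binds transcripts of these neighbours was not tested.

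Promoters from RefSeq (build GRCm38.p6, 250 bases before to 50 after the start) were found for 4 of the 7 genes. They are shown because these members differ in where they are expressed. None was found for Cyp4a10, Cyp4a14 or Cyp4a31, so the motif search covers no Cyp4a gene. Cyp4f14 had 4 starts, of which only the first is shown and described, and the other genes had 1 each. Capitals mark the motifs CCAAT (on the other strand ATTGG) and GGGCGG (on the other strand CCGCCC), searched on both strands and chosen after the sequences had been read.
Cyp4b1, chr4:115647672-115647971, minus strand: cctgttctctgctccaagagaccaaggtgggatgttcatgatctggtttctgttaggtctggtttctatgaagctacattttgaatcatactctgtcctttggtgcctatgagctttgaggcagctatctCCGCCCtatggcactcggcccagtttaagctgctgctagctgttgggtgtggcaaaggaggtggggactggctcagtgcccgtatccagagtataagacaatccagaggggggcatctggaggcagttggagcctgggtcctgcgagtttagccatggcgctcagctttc
Cyp4f13, chr17:32947312-32947611, minus strand: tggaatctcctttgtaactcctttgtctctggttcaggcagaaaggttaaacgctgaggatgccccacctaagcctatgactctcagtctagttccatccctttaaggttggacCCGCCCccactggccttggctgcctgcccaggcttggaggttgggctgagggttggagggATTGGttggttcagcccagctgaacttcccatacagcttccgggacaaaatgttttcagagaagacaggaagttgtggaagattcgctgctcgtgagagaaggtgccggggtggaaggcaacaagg
Cyp4f14, chr17:32917307-32917606, minus strand: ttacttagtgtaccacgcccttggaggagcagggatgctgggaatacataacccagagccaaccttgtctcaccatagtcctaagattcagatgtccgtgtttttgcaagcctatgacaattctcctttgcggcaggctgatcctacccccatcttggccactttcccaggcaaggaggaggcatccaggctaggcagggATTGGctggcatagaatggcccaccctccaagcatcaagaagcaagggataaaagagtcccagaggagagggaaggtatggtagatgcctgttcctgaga
Cyp4f15, chr17:32685409-32685708, plus strand: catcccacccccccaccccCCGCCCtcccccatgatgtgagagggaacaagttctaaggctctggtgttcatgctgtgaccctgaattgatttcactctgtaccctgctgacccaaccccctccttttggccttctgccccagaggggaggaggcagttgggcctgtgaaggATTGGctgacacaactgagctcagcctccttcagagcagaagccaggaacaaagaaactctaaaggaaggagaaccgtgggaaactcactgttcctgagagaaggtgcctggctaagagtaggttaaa
CCAAT lay in the promoters of Cyp4f13, Cyp4f14 and Cyp4f15 and in 37.4% of 32817 promoters of this length, and GGGCGG in those of Cyp4b1, Cyp4f13 and Cyp4f15 and in 35.6%. The 4 windows did not hold TATAAA (13.6% of promoters) or AGGTCA (16.3%), the core letters that nuclear receptors such as PPAR alpha bind, searched on both strands. The 4 windows hold 5, 6, 3 and 2 CG pairs in the order printed, against a median of 7 over all promoters. The longest run shared by Cyp4f13 and Cyp4f15 was 14 bases, tgagagaaggtgcc, which starts 17 bases after the start in both.

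Values are log2 intensities after background correction and quantile normalization within a tissue, and a probe entered the tests of a tissue when its detection p was under 0.01 on at least 3 arrays. Between 10623 probes (liver) and 13356 (lungs) were tested, and 33.17% to 50.28% of the probes were detected on an array. Of the 6 Cyp4 probes, 6 passed in the liver, 5 in each kidney region (all but Cyp4f15), 3 in the lungs (Cyp4b1, Cyp4f13 and Cyp4f15) and 2 each in spleen and thyroid (Cyp4b1 and Cyp4f13). The 13 combinations of probe and tissue below this limit had at most 1 array with a detection p under 0.01, and the one that passed with the fewest, Cyp4b1 in the thyroid, had 15 of 16. A probe was called when its limma p, adjusted over all probes of the comparison, was under 0.01 and its log2 ratio at least 0.58 in size. The marker sums given beside the results are log2 of the summed intensities of a fixed gene list. In whole tissue, fewer cells of a type and less RNA per cell cannot be told apart.

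In the kidney cortex, Cyp4a31 and its cluster neighbour Cyp4b1 were high in group C and low in group B, Cyp4a14 was high in group C, and the Cyp4f genes showed no such order. Cyp4a31 read 12.39, 12.23 and 12.48 in group C and 11.10, 11.38 and 11.35 in group B. In group A it read 11.78, 11.79 and 11.83, against 11.68, 11.76, 11.85, 11.64 and 11.63 in sham mice. All group C mice lay above, and all group B mice below, every sham mouse. The difference between groups C and B was 1.09 ± 0.126 (SE; 95% interval 0.82 to 1.36), a 2.13-fold higher signal in group C. This is the value that chose the gene, whose probe had the lowest limma p of the 12527 probes in this comparison. The SE and interval do not allow for that choice. Nothing is read from the probe being 1 of 5 Cyp4 probes past the call limits, where 0.00798% of all probes were. Groups C and B differed in whether the collum was in the field and not in the dose to the abdomen.

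Against sham, the log2 ratio of Cyp4a31 in the kidney cortex was 0.65 ± 0.112 in group C (SE; limma, adjusted p = 0.136), -0.44 ± 0.112 in group B (adjusted p = 0.186) and 0.088 ± 0.112 in group A (adjusted p = 0.885). None of these passed the call, and they use the same mice as the difference above. Group C also lay above group A (0.57 ± 0.126, adjusted p = 0.211) and group B below group A (-0.52 ± 0.126, adjusted p = 0.545), both without overlap. In those comparisons 7.37% of all probes lay wholly above and 6.51% wholly below.

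**Figure D1:**
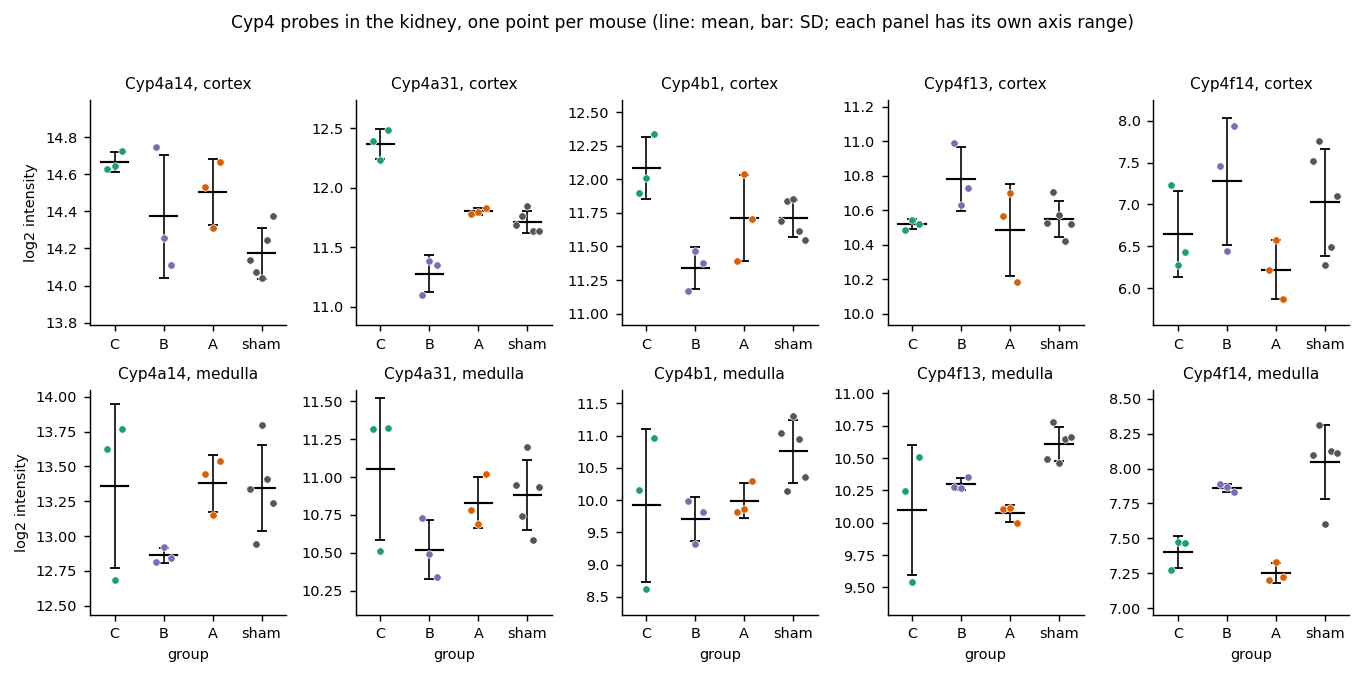
Log2 intensity (y axis, own range in each panel) of 5 Cyp4 probes in kidney cortex (upper row) and kidney medulla (lower row) for groups C, B, A and sham (x axis), with 1 point per mouse, lines at the mean and bars of 1 SD. Cyp4a31 in the cortex runs from 12.23 to 12.48 in group C and from 11.10 to 11.38 in group B, and Cyp4f14 in the medulla stays between 7.20 and 7.33 in group A, below all 5 sham mice.

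Cyp4a14 gave 14.63, 14.64 and 14.73 in the cortex of group C, 14.75, 14.26 and 14.11 in group B mice and 14.53, 14.31 and 14.67 in group A. Its sham values were 14.14, 14.07, 14.04, 14.24 and 14.37, so that group C lay above all sham mice while groups B and A overlapped with them. The log2 ratios against sham were 0.49 ± 0.149 in group C (SE; limma, adjusted p = 0.478), 0.20 ± 0.149 in group B (adjusted p = 0.561) and 0.33 ± 0.149 in group A (adjusted p = 0.632).

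Cyp4b1 gave 11.90, 12.01 and 12.34 in group C, 11.17, 11.47 and 11.38 in group B mice and 11.39, 12.04 and 11.70 in group A. The sham mice read 11.69, 11.84, 11.86, 11.62 and 11.55. As with Cyp4a31, group C lay wholly above and group B wholly below the sham mice. The log2 ratios were 0.37 in group C (limma, adjusted p = 0.562) and -0.37 in group B (adjusted p = 0.322), and the difference of C and B, which belongs to the comparison that chose the family, was 0.75 ± 0.176 (SE). Groups C and B did not overlap for 3 of the 5 probes, with 2 above and 1 below. All probes gave 6.97% and 6.98%, and nothing is read from this count, which includes the probe that chose the family.

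Cyp4f13 gave 10.49, 10.54 and 10.52 in group C, 10.99, 10.63 and 10.73 in group B, 10.56, 10.70 and 10.19 in group A and 10.52, 10.70, 10.57, 10.42 and 10.52 in sham mice. Every group overlapped with sham, and group C lay below group B by 0.26. Cyp4f14 was dim in the cortex, with 7.23, 6.28 and 6.44 in group C, 7.45, 6.45 and 7.93 in group B, 6.22, 6.57 and 5.87 in group A and 7.52, 7.75, 6.28, 6.49 and 7.10 in sham mice. Its group A ratio was the largest in size of the Cyp4 probes against sham here, -0.81 ± 0.378 (SE; limma, adjusted p = 0.642), with overlap.

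In all, 3 of 5 Cyp4 probes in group C lay above every sham mouse, against 2.76% of all probes in that comparison, and 2 of 5 in group B lay below, against 4.69%. Both counts include Cyp4a31 and use the mice it was chosen on, so they are partly fixed by that choice. No Cyp4 probe and none of the 12527 probes (0%) was called against sham in any group of the cortex. At an unadjusted limma p under 0.05 stood 3 of 5 Cyp4 probes in group C (all probes 8.6%), 2 in group B (13.9%) and 1 in group A (7.76%), and limma with a trended, robust prior called 0 as well, here and for the Cyp4 probes of the liver, lungs, spleen and thyroid samples. Proximal tubule marker sums covered the 11 genes on the array, of which 10 passed the filter. They were 16.16 to 16.45 in group C, 16.44 to 16.60 in group B, 16.23 to 16.31 in group A and 16.41 to 16.61 in sham mice. The part of these sums in the Cyp4 signals was not tested.

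In the kidney medulla 1 of the 5 Cyp4 probes fell, Cyp4f14 in group A, where the kidney lay outside the field. The ratios of Cyp4f13, Cyp4f14 and Cyp4b1 against sham were negative in all 3 groups, and only that of Cyp4f14 in group A was called. Over all probes 47.3% of the ratios were positive in group C, 43.2% in group B and 42.9% in group A, so most were negative as well. The 3 groups share their sham mice. Cyp4f14 read 7.27, 7.48 and 7.46 in group C, 7.89, 7.86 and 7.83 in group B mice and 7.21, 7.33 and 7.22 in group A, against 8.10, 8.31, 7.60, 8.12 and 8.11 in sham mice. Groups C and A lay wholly below the sham mice, and group B lay between sham replicate 3 and the other sham mice.

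In group A, Cyp4f14 fell by 0.80 ± 0.14 on the log2 scale (SE; limma, adjusted p = 0.00636), a signal 0.576 times that of sham. It was 1 of 5 Cyp4 probes called lower, and 0.155% of the 12296 probes were called lower in that comparison (1.39% in either direction). The ratio was -0.65 ± 0.14 in group C (adjusted p = 0.029), which misses the limit of 0.01, and -0.19 ± 0.14 in group B (adjusted p = 0.459). Group B lay above group A (0.61 ± 0.157, adjusted p = 0.97) and group C below group B (-0.46 ± 0.157, adjusted p = 0.615), both without overlap (6.29% and 5.02% of all probes in that direction) and neither called. The call in group A was lost without background correction (-0.55, adjusted p = 0.00577) and with the authors' normalized values (-0.53, adjusted p = 0.00672), where the log2 ratio fell short of 0.58 in size. It was also lost with the replicate number as a block (-0.75, adjusted p = 0.05) and without any 1 mouse of groups A or B or sham replicate 1, 2, 4 or 5, with log2 ratios of -0.91 to -0.73 over all mice left out in turn.

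Cyp4f13 read 10.25, 9.54 and 10.51 in the medulla of group C, 10.27, 10.27 and 10.35 in group B mice and 10.11, 10.11 and 9.996 in group A, against 10.49, 10.78, 10.46, 10.65 and 10.66 in sham mice. Groups B and A lay wholly below the sham mice. The log2 ratios were -0.51 ± 0.173 in group C (SE; limma, adjusted p = 0.0941), -0.31 ± 0.173 in group B (adjusted p = 0.309) and -0.53 ± 0.173 in group A (adjusted p = 0.0775).

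Cyp4b1 read 10.16, 8.63 and 10.97 in group C, 9.98, 9.32 and 9.82 in group B mice and 9.81, 9.86 and 10.30 in group A. Its sham values were 11.04, 10.14, 11.31, 10.95 and 10.35, and only group B lay wholly below them. The log2 ratios were -0.84 ± 0.41 in group C (SE; limma, adjusted p = 0.205), -1.05 ± 0.41 in group B (adjusted p = 0.144) and -0.77 ± 0.41 in group A (adjusted p = 0.28).

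The samples labelled medulla also held proximal tubule markers, with sums of 15.65 to 16.11 in sham mice. The sham cortex gave 16.41 to 16.61, but each tissue was normalized on its own, so these ranges are not on a common scale. Group C replicate 2 had the lowest value of the 14 mice for both Cyp4b1 and Cyp4f13 in the medulla. Its proximal tubule marker sum was 14.89, against 15.65 to 16.11 in the other 13 mice, and the part of this in the results was not tested. Without this mouse the group C ratio was -0.20 ± 0.316 for Cyp4b1 (SE; adjusted p = 0.814) and -0.23 ± 0.118 for Cyp4f13 (adjusted p = 0.377). For Cyp4f14 it was -0.68 ± 0.157 without this mouse (adjusted p = 0.0823).

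The Cyp4a probes of the medulla lay near sham. Cyp4a14 read 13.63, 12.69 and 13.77 in group C, 12.82, 12.92 and 12.85 in group B mice and 13.45, 13.15 and 13.54 in group A, against 13.34, 12.94, 13.80, 13.41 and 13.24 in sham mice. Group B lay just below all sham mice (-0.48 ± 0.228, SE; limma, adjusted p = 0.226). Cyp4a31 read 11.32, 10.51 and 11.32 in group C, 10.73, 10.49 and 10.34 in group B, 10.78, 10.69 and 11.02 in group A and 10.94, 10.74, 11.20, 10.59 and 10.93 in sham mice. All its groups overlapped with sham, and the difference of groups C and B was 0.53 (adjusted p = 0.626).

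No Cyp4 probe of the medulla was called in groups C and B, where 0.13% and 1.78% of all probes were. Over the 5 Cyp4 probes of the medulla, 1 lay below all sham mice in group C (all probes 6.38%), 3 in group B (12.7%) and 2 in group A (11.1%). Thick ascending limb marker sums were 15.72 to 15.89 in group C, 15.77 to 15.997 in group B and from 15.86 upward in group A, against 15.59 to 15.80 in sham mice. Every group A mouse lay above every sham mouse in these sums, and their part in the fall of Cyp4f14 was not tested.

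The log2 ratios of cortex and medulla were set against each other in 1 model of both tissues. None of the 15 differences of 5 Cyp4 probes and 3 groups was called by limma, against 0.0084% of all probes in group C, 3.6% in group B mice and 3.3% in group A. The lowest adjusted p was 0.12, for Cyp4f13 in group B, whose ratio was 0.22 in the cortex and -0.32 in the medulla. Cyp4b1 in group C had the widest gap, with 0.37 in the cortex and -0.87 in the medulla (difference 1.23 ± 0.472, SE; adjusted p = 0.255). At an unadjusted p under 0.05 stood 2 of 5 differences in group C (all probes 12.3%), 2 in group B (24%) and 1 in group A (23.2%).

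In the liver, both Cyp4a genes read higher in groups C and A than in sham mice, with little difference in group B, while Cyp4f15 was low in 1 mouse of group C and Cyp4f14 lowest in that mouse. None of the 6 Cyp4 probes was called in any group. Cyp4a31 read 11.29, 11.83 and 11.86 in group C, 10.38, 10.82 and 10.87 in group B mice and 11.93, 11.60 and 11.76 in group A, against 10.46, 10.34, 10.49, 9.26 and 10.57 in sham mice. All mice of groups C and A lay above all sham mice, and also above all mice of group B, which overlapped with sham. Of all probes, 7.26% lay above in group C against group B, and 4.94% below in group B against group A.

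The log2 ratio of Cyp4a31 in the liver was 1.44 ± 0.262 in group C (SE; limma, adjusted p = 0.0781), a 2.71-fold higher signal, and 1.54 ± 0.262 in group A (adjusted p = 0.118), a 2.9-fold higher signal. In group B it was 0.46 ± 0.262 (adjusted p = 0.957). The direct differences were 0.97 ± 0.293 for group C minus group B (adjusted p = 0.254), -1.07 ± 0.293 for group B minus group A (adjusted p = 1) and -0.098 ± 0.293 for group C minus group A (adjusted p = 0.906). Sham replicate 4 was the lowest mouse, and without it the log2 ratio was 1.197 ± 0.174 in group C (adjusted p = 0.0322) and 1.30 ± 0.174 in group A (adjusted p = 0.0411).

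Cyp4a14 read 12.59, 13.32 and 14.14 in the liver of group C, 12.09, 12.27 and 11.83 in group B mice and 13.37, 12.88 and 12.87 in group A. The sham mice read 12.21, 11.77, 12.19, 9.78 and 12.19, with replicate 4 again the lowest. Groups C and A lay above all sham mice and above group B. The log2 ratio was 1.72 ± 0.473 in group C (SE; limma, adjusted p = 0.161), 0.44 ± 0.473 in group B (adjusted p = 0.999) and 1.41 ± 0.473 in group A (adjusted p = 0.444). Without sham replicate 4 it was 1.26 ± 0.284 in group C (adjusted p = 0.163) and 0.95 ± 0.284 in group A (adjusted p = 0.452).

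**Figure D2:**
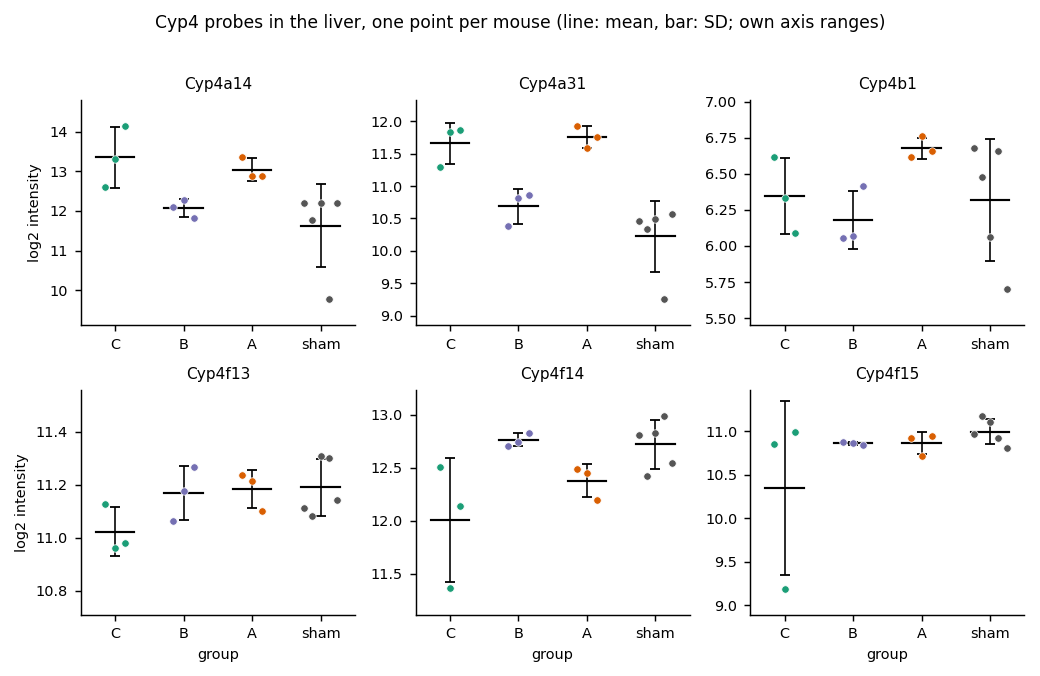
Log2 intensity (y axis, own range in each panel) of the 6 Cyp4 probes in the liver for groups C, B, A and sham (x axis), with 1 point per mouse, lines at the mean and bars of 1 SD. For Cyp4a31 groups C (11.29 to 11.86) and A (11.60 to 11.93) lie above all sham mice (9.26 to 10.57), and for Cyp4f15 the single low point of group C is replicate 2 at 9.19.

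Over the liver, 2 of 6 Cyp4 probes lay above all sham mice in group C (all probes 3.83%), 0 in group B (2.87%) and 2 in group A (3.32%). At an unadjusted limma p under 0.05 stood 4 of 6 in group C (15.4%), 0 in group B (5.31%) and 2 in group A (8.04%). Over all probes 0.0188% were called in group C and 0% in groups B and A. Hepatocyte marker sums covered the 8 genes on the array, of which 7 passed the filter. They were 17.07 to 17.12 in group C, 17.09 to 17.22 in group B, 17.14 to 17.16 in group A and 17.02 to 17.23 in sham mice, and did not separate the groups.

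Cyp4f14, bright in the liver, read 12.51, 11.37 and 12.14 in group C, 12.71, 12.75 and 12.83 in group B mice and 12.49, 12.45 and 12.20 in group A, against 12.81, 12.42, 12.83, 12.98 and 12.55 in sham mice. Its group C ratio was -0.71 ± 0.212 (SE; limma, adjusted p = 0.188). Group C replicate 2 was the lowest mouse, and without it the ratio was -0.39 ± 0.168 (adjusted p = 0.528).

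Cyp4f15 read 10.85, 9.19 and 10.99 in group C, 10.87, 10.86 and 10.84 in group B, 10.92, 10.72 and 10.94 in group A and 10.97, 11.18, 11.10, 10.92 and 10.80 in sham mice. The group C ratio of -0.65 ± 0.296 (SE; limma, adjusted p = 0.315) rested on replicate 2, since it was -0.075 ± 0.132 without that mouse (adjusted p = 0.899). Cyp4f13 stayed between 10.96 and 11.31 in all 14 livers. Cyp4b1 was dim there, with 5.70 to 6.76 over the 14 mice, and its groups overlapped with sham.

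In the spleen, Cyp4b1 read higher in both groups with the spleen in the field. It gave 8.65, 8.32 and 8.84 in group C, 8.21, 8.53 and 8.80 in group B mice and 7.57, 7.21 and 7.27 in group A, against 8.11, 7.74, 7.40, 7.76 and 7.44 in sham mice. All mice of groups C and B lay above all mice of group A and all sham mice, and group A overlapped with sham.

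The log2 ratio of Cyp4b1 against sham was 0.91 ± 0.194 in group C (SE; limma, adjusted p = 0.086) and 0.82 ± 0.194 in group B (adjusted p = 0.207), and -0.34 ± 0.194 in group A (adjusted p = 0.577). Over all probes, 2.3% lay above sham in group C and 4.13% in group B, and 0.0658%, 0.0493% and 0.00822% were called in groups C, B and A, the Cyp4 probes not among them. The direct differences were 1.25 ± 0.217 for group C minus group A (adjusted p = 0.0301) and 1.16 ± 0.217 for group B minus group A (adjusted p = 0.0245). Both pass an adjusted p of 0.05 and not the limit of 0.01. Over all probes, 6.53% lay wholly above group A in group C and 14.6% in group B. The other spleen probe, Cyp4f13, ran from 8.35 to 10.08 with overlap in every group.

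Markers of pancreatic acinar cells, an organ that adjoins the spleen, also moved in these samples. Their sum, over the 4 genes on the array, was 10.02 to 11.24 in group C and 9.54 to 12.63 in group B, against 9.22 to 9.94 in group A and 9.05 to 10.13 in sham mice. The 12.63 belonged to group B replicate 3. Lymphocyte marker sums were 11.17 to 13.17 in group C, 13.21 to 13.38 in group B, 13.16 to 13.78 in group A and 12.86 to 13.86 in sham mice. The part of either in the Cyp4b1 signal was not tested. Without group B replicate 3 the Cyp4b1 ratio of group B against sham was 0.68 ± 0.219 (SE; adjusted p = 0.643).

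In the lungs, the organ Cyp4b1 is best known from, none of the 3 Cyp4 probes was called. Cyp4b1 read 11.85, 12.38 and 11.77 in group C, 11.57, 11.95 and 11.93 in group B, 11.84, 11.61 and 11.66 in group A and 11.78, 11.98, 11.41, 11.10 and 11.79 in sham mice. All groups overlapped with sham, and the log2 ratios were between 0.090 in group A and 0.39 in group C. Cyp4f13 ran from 9.36 to 10.72 over the 14 mice.

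Cyp4f15 read 7.51, 6.67 and 6.95 in the lungs of group C, 5.98, 6.72 and 6.73 in group B mice and 7.53, 6.80 and 7.45 in group A, against 7.10, 8.03, 6.86, 6.58 and 8.49 in sham mice. Group B had the lowest mean, with a log2 ratio of -0.94 ± 0.391 (SE; limma, adjusted p = 0.9) and overlap with sham. At an unadjusted p under 0.05 it was 1 of 3 Cyp4 probes in group B (all probes 5.35%), with 0 of 3 in groups C and A. The percentages of all lung probes called were 0% in group C, 0.00749% in group B mice and 0% in group A.

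The samples labelled thyroid differed in tissue make-up. The thyroid follicle marker sum was above 12 in 4 of 14 mice (group C replicate 3, group A replicate 1 and sham replicates 1 and 4) and 6.38 to 8.74 in the other 10. Skeletal muscle marker sums were 15.93 to 16.66 in 13 mice and 6.96 in 1 mouse of group A. Thyroglobulin is the defining product of thyroid follicles, so the label was not borne out by its markers in most of these samples.

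Cyp4b1 read 6.27, 9.96 and 6.41 in thyroid samples of group C, 6.83, 6.86 and 6.47 in group B mice and 6.42, 4.63 and 6.18 in group A, against 8.97, 5.99, 5.83, 5.63 and 6.21 in sham mice. The groups overlapped. Group C replicate 2 and sham replicate 1 stood above the other mice. Their lung epithelium marker sums were 11.06 and 14.55, in a range of 7.18 to 14.55 over the 14 mice. In group A, where Cyp4b1 was at most 6.42, these sums had a median of 12.74 and a highest value of 13.78. The part of lung tissue in the Cyp4b1 signal was not tested. The group C ratio was 1.02 ± 0.89 (SE; limma, adjusted p = 0.999), and -0.18 without group C replicate 2.

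Cyp4f13 read 7.80, 9.74 and 8.10 in thyroid samples of group C, 8.71, 8.59 and 9.11 in group B mice and 8.94, 9.88 and 7.51 in group A, against 8.03, 7.69, 7.65, 8.55 and 7.83 in sham mice. Group B lay above all sham mice by a narrow margin (0.85 ± 0.511, SE; limma, adjusted p = 1), 1 of 2 Cyp4 probes against 1.21% of all probes. No Cyp4 probe was called in thyroid samples, and 0% of all probes were called against sham in each group.

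**Figure D3:**
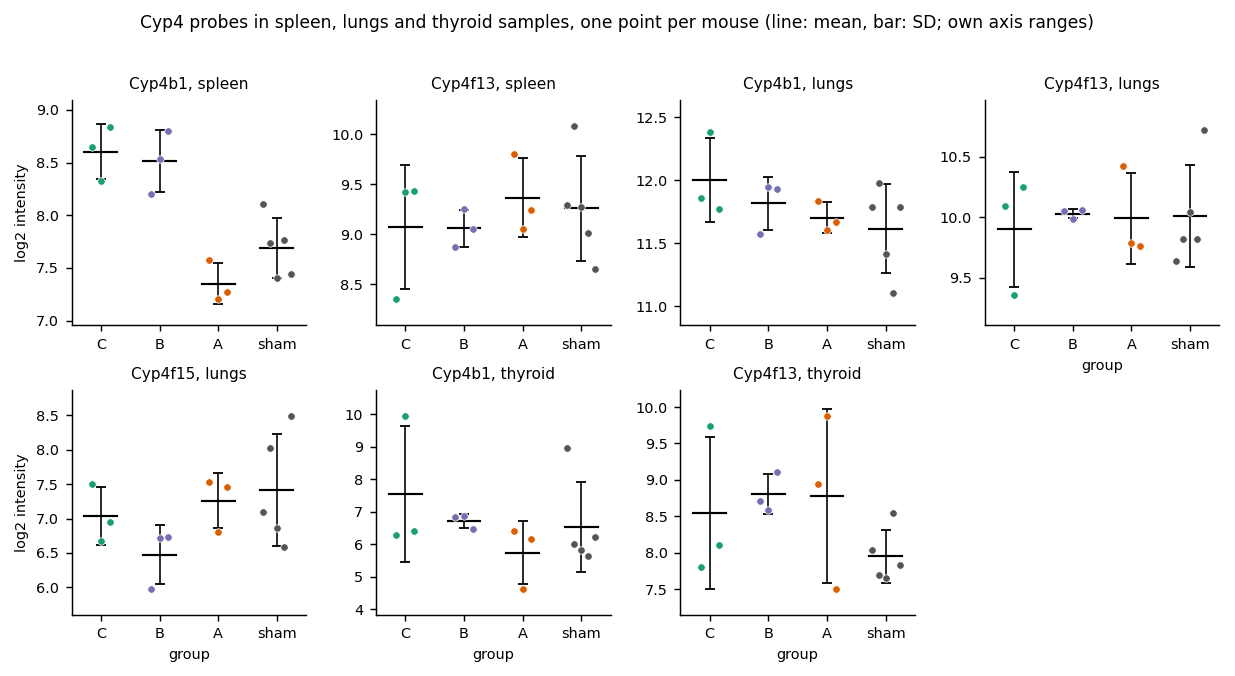
Log2 intensity (y axis, own range in each panel) of Cyp4 probes in spleen, lungs and thyroid samples for groups C, B, A and sham (x axis), with 1 point per mouse, lines at the mean and bars of 1 SD. Cyp4b1 in the spleen lies between 8.21 and 8.84 in groups C and B and at or below 8.11 in group A and sham.

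The 6 probes differed in the tissues where sham mice expressed them, which was examined on a scale normalized over all tissues. Cyp4a14 averaged 13.89 ± 0.173 in cortex, 13.36 ± 0.327 in medulla and 11.62 ± 0.875 in liver (SD, n = 5 each), and was not detected in lungs, spleen or thyroid samples of sham mice. The difference of cortex and medulla was 0.53 ± 0.238 (SE; limma, adjusted p = 0.149) and was not called, while the cortex exceeded the liver 4.83-fold (adjusted p = 1.89e-09). The cortex was at least 398-fold brighter than the lungs and the liver at least 82.3-fold. Such bounds set the bright mean against the higher of the lowest detected signal of an array and the dim probe's own signal.

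Cyp4a31 followed the same order, with 11.38 ± 0.0913 in cortex, 10.75 ± 0.245 in medulla and 10.44 ± 0.464 in liver (SD, n = 5 each), and no detection elsewhere. Medulla and liver did not differ beyond the call (0.31 ± 0.145, SE; limma, adjusted p = 0.0692). The cortex was at least 69.6-fold brighter than the lungs.

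Cyp4b1 was detected in all 6 tissues. It averaged 11.48 ± 0.395 in lungs, 11.38 ± 0.136 in cortex and 10.62 ± 0.517 in medulla (SD, n = 5 each), and these 3 tissues were not called different from each other (limma, lowest adjusted p = 0.0544). Spleen (7.70 ± 0.278), thyroid samples (7.12 ± 1.39) and liver (6.94 ± 0.419) formed a dim set that were not called different among themselves either.

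Cyp4f13 was the most evenly expressed of the 6 probes, with 11.25 in liver, 10.46 in medulla, 10.24 in cortex, 9.65 in lungs, 9.26 in spleen and 8.59 in thyroid samples, as means of 5 sham mice. Medulla and cortex, cortex and lungs, and lungs and spleen were not called different. Cyp4f14 and Cyp4f15 were liver probes. Cyp4f14 averaged 12.51 ± 0.191 in the liver, 7.82 ± 0.274 in the medulla and 6.79 ± 0.615 in the cortex (SD, n = 5 each), and its liver signal was at least 153-fold that of the lungs. Cyp4f15 averaged 11.08 ± 0.128 in the liver and 6.86 ± 0.841 in the lungs, and its liver signal was at least 48.8-fold that of the kidney cortex. Over all 15 pairs of tissues, 64 of 90 differences of Cyp4 probes were called, against 49.5% over all probes.

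**Figure D4:**
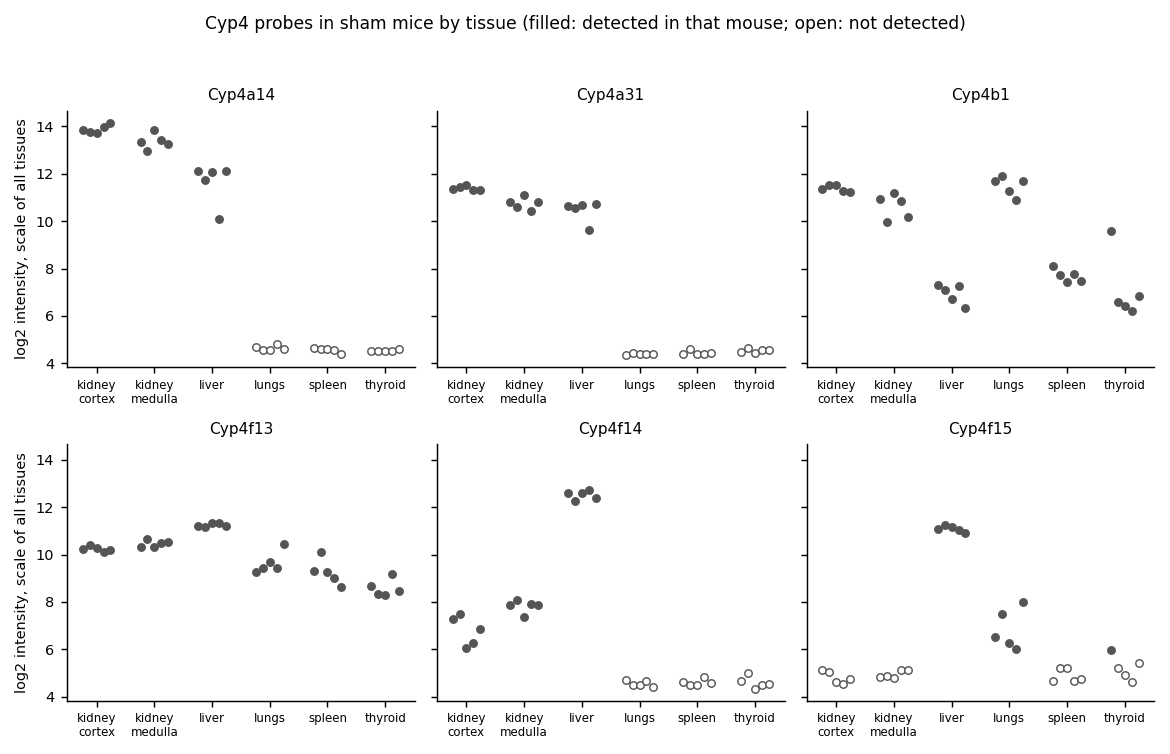
Log2 intensity on the scale of all tissues (y axis) of the 6 Cyp4 probes in 6 tissues of the 5 sham mice (x axis), with 1 point per mouse, filled where the probe was detected and open where it was not. Cyp4a14 and Cyp4a31 are bright in both kidney regions and the liver and undetected elsewhere, and Cyp4f14 and Cyp4f15 are brightest in the liver.

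PPAR alpha is the receptor through which fatty acids induce their own oxidation, and 42 of a list of 45 of its known target genes were on the array, the Cyp4 genes not counted. In the liver 35 of them were measured. Against sham, 32 of 35 had a positive log2 ratio in group C with a median of 0.41, 21 in group B with a median of 0.026 and 27 in group A with a median of 0.21, where the medians over all probes were 0.0021, 0.012 and 0.011. No target was called in any group. At an unadjusted limma p under 0.05 stood 21 of 35 higher and 1 lower in group C (all probes 8.06% and 7.39%), 0 in group B (1.89% and 3.42%), and 12 higher and 0 lower in group A (3.24% and 4.8%). The largest ratios in group C were those of Cidec, a lipid droplet protein (3.76 ± 0.926, SE; adjusted p = 0.147), Fgf21, a fasting hormone (1.58 ± 0.652, adjusted p = 0.28), and Acot1, an acyl-CoA thioesterase (1.25 ± 0.393, adjusted p = 0.195), each with overlap between groups. In group A Fgf21 and Acot1 gave 0.99 and 0.96, and Cidec -0.12. The 3 sets of ratios share their sham mice.

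In the kidney cortex 36 targets were measured, and 30 of 36 had a positive ratio against sham in group C with a median of 0.30, 12 in group B with a median of -0.053 and 26 in group A with a median of 0.13, where the medians over all probes were -0.0023, 0.0098 and 0.019. No target was called. At an unadjusted limma p under 0.05 stood 16 of 36 higher in group C (all probes 3.76%), 3 lower in group B (8.21%) and 2 higher in group A (3.91%). The cortex ratios of groups C and B against sham use the mice on which the family was chosen. Their counts and medians are therefore partly fixed by that choice. In the difference of groups C and B, which chose the family, 35 of 36 were positive with a median of 0.40, beside 49.1% and a median of -0.0059 over all probes, from which nothing is read. The largest were Pdk4, a kinase that restrains glucose oxidation (2.24 ± 0.569, SE), Plin2, a lipid droplet coat protein (2.07 ± 0.797), and Acot2, a thioesterase (1.43 ± 0.358). Against sham, Pdk4, Plin2 and Acot2 gave 1.76, 1.90 and 1.13 in group C and -0.48, -0.17 and -0.30 in group B. The list was chosen with earlier results of these data known.

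**Figure D5:**
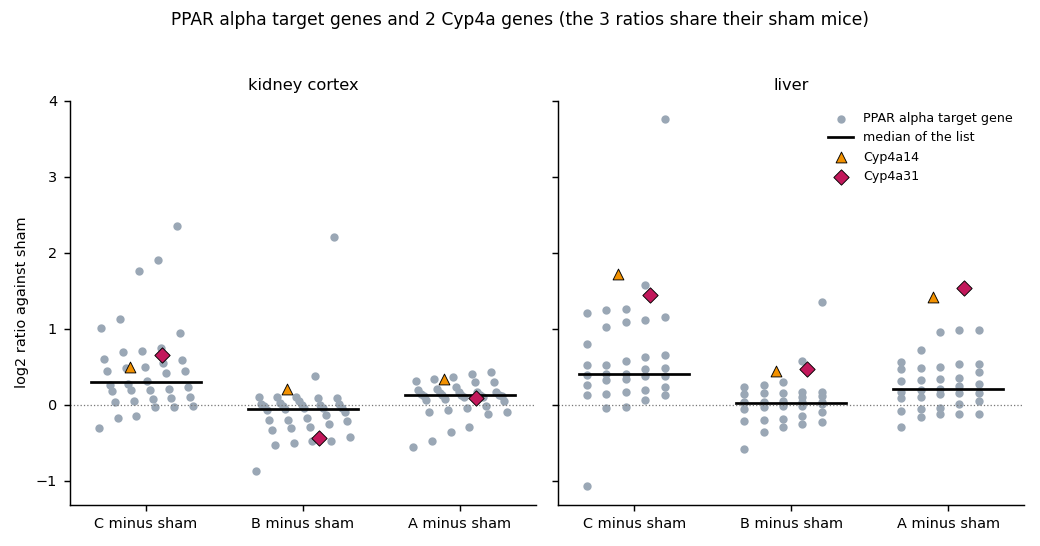
Log2 ratio against sham (y axis) of PPAR alpha target genes (grey points, with the list's median as a line) in groups C, B and A (x axis) in kidney cortex (36 genes) and liver (35 genes), with Cyp4a14 (triangle) and Cyp4a31 (diamond) added. In the liver both Cyp4a probes lie above the list's median in all 3 groups, and in the cortex Cyp4a31 lies above it in group C (0.65 against a median of 0.30) and below it in group B (-0.44 against -0.053). The cortex ratios of groups C and B use the mice on which the family was chosen.

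In the kidney medulla 1 of 34 measured targets was called in groups B and A, a share near that of all probes called higher (1.74% and 1.24%), which is no result about the list. It was Hadhb, a subunit of the trifunctional protein of mitochondrial beta-oxidation, with log2 ratios of 0.76 ± 0.13 (SE; limma, adjusted p = 0.00547) in group B mice and 0.76 ± 0.13 (adjusted p = 0.00554) in group A. The list's median there was 0.054 in group C, -0.19 in group B mice and -0.070 in group A. Of 15 eicosanoid enzymes measured there, 1 was called, Ptges3, a prostaglandin E synthase and cochaperone, which rose in the medulla of group B (0.83 ± 0.158, adjusted p = 0.0084) and of group A (0.83 ± 0.158, adjusted p = 0.00904). Of 13 nuclear receptors and coactivators, 1 was called, Med1, a coactivator of PPAR alpha, which rose in group A (0.63 ± 0.12, adjusted p = 0.00931). Beside these single calls, 1.74% of all probes were called higher in group B and 1.24% in group A, and nothing is read from them about the lists. How the calls of Hadhb, Ptges3 and Med1 depend on the processing or on single mice was not tested.

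No other gene of the lists was called in cortex, medulla or liver. Of 16 eicosanoid enzymes measured in the cortex, 12 had a negative difference between groups C and B (median -0.21), with Ltc4s, Ptges and Ptgr2 at -0.65, -0.49 and -0.39. That difference chose the family and was positive for 49.1% of all probes, so nothing is read from it here or below. In the liver the largest ratios of this list in group C were Cyp2c55 (-1.503), Ptgds (0.86) and Cyp2c29 (-0.81). The omega-oxidation partners, the reductases, dehydrogenases and transporters that work beside Cyp4 enzymes, had medians against sham of -0.21 in group C, 0.013 in group B mice and 0.19 in group A in the liver (12 measured), and Adh5 (0.93), Abcd3 (0.53) and Adh1 (-0.50) led the difference of groups C and B in the cortex. Ppara itself, named here for its role, had a liver ratio of 0.54 in group C (adjusted p = 0.242), 0.020 in group B mice and 0.12 in group A.

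Of 15 other Cyp4 genes, 7 were on the array and 4 were measured in the kidney cortex. Their ratios against sham in group C were 0.51 for Cyp4a12a, 0.44 for Cyp4a12b, 0.068 for Cyp4v3 and 0.021 for Cyp4f16, and none was called. Cyp4a12a and Cyp4a12b are the male-biased arachidonic acid hydroxylases of the mouse kidney, and all mice here were female. Of the circadian clock genes, 12 were measured in the cortex and none was called there, in the medulla or in the liver.

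Which genes followed the Cyp4 probes over the 14 mice was described by Pearson's r over all probes of the tissue, without a test, since mice of 1 group share their irradiation. In the liver the probe most like Cyp4a14 was Cyp4a31 (r = 0.924, Spearman's rho 0.912), followed by Slc25a20, the mitochondrial carnitine carrier (r = 0.883). With group means removed, the r of Cyp4a14 and Cyp4a31 was 0.905. In the kidney cortex the probe most like Cyp4a31 was one of Pex11a, a peroxisome proliferation factor (r = 0.896), then Psmc5 and Nqo1 (r = 0.888 and 0.874). The other Pex11a probe, the brighter one, had a C minus B difference of 0.45, where the first had 1.10. The probes most like Cyp4b1 were those of Psmc5, Faim and Lpcat3 (r = 0.935, 0.893 and 0.877), with Cyp4a31 in the fifth place (r = 0.864). These r values of the cortex span the mice of groups C and B, whose difference chose the family, and are partly fixed by it. With group means removed, the r of Cyp4a31 and Cyp4b1 was 0.595. Cyp4a14 and Cyp4a31 had an r of 0.359 in the cortex, which turned to -0.615 with group means removed, and of 0.836 in the medulla (0.806 with group means removed).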

How the data were processed

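The authors hybridised RNA to Illumina BeadChips and deposited, per probe and array, an average signal intensity before normalization and a detection p-value. How the deposited p-value was made is not given in the sources used here. The authors also deposited intensity values that were quantile normalized over all 88 arrays, which were used as an alternative. Repeat arrays of 1 mouse (2 samples with 3 arrays each) were averaged. Intensities were background corrected from the detection p (offset 16), quantile normalized within a tissue and taken to log2. Probes with detection p under 0.01 on at least 3 arrays were fitted in limma 3.58.1 (R 4.3.3) with all 4 groups of a tissue, and p-values were adjusted by Benjamini-Hochberg over all probes. A call required a ratio of at least 0.58 (log2) in size together with an adjusted p below 0.01, the limits in the study's methods, which name no test. Sham tissues and the 2 kidney regions were compared on jointly normalized values, with samples taken as independent although each mouse gave several. The fits were tested on simulated data. The number of arrays limits the precision. All Cyp4 probes were named. Of other lists, the called genes or at most 3 with the largest ratios were named, with the brightest probe for each gene. Ppara and the other Cyp4 genes were named for what they are, and genes of like pattern by rank of Pearson's r. The genes and lists were chosen with earlier results of these data known.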

Additional observations from a re-analysis of the deposited data

Results flagged for a closer look

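Of 23 sets of sham values examined, each of 1 probe in 1 tissue, 3 held a mouse far from the others. Chance gives about 1 in 20 for a single set. All sets come from the same 5 mice and are not independent, and 1 liver gave the hits of both Cyp4a probes. The count is therefore not weighed against that rate. Sham replicate 4 read 9.78 for Cyp4a14 in the liver, where the nearest sham mouse read 11.77, and 9.26 for Cyp4a31, where the nearest read 10.34. Sham replicate 1 read 8.97 for Cyp4b1 in thyroid samples, where the nearest read 6.21.

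Opposite moves of all mice of a group (A, B or C) against sham were looked for in 105 pairs of tissues and groups. This gave 3, all in group B, and their share over all probes was not counted. The differences between the tissues were not tested. Cyp4b1 gave -0.37 in the kidney cortex and 0.82 in the spleen, a difference of -1.196. Cyp4b1 gave -1.05 in the kidney medulla and 0.82 in the spleen, a difference of -1.875. Cyp4f13 gave -0.31 in the kidney medulla and 0.85 in thyroid samples, a difference of -1.165.

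Among the 13 combinations of probe and tissue below the filter, 4 held a mouse with a detected signal above all sham mice. The thyroid sample of group B replicate 2 read 9.37 for Cyp4a14, against 4.40 to 4.50 in sham mice, and 6.16 for Cyp4a31, against 4.34 to 4.52. The proximal tubule marker sum of this sample was 11.86, against 8.10 to 8.85 in the other 13 thyroid samples, and its part in these signals was not tested. Cyp4f15 read 5.73 in the medulla of group B replicate 1, against 4.84 to 5.27 in sham mice. It read 5.85 in the spleen of group A replicate 1, against 4.81 to 5.18 in sham mice.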

How the results depend on the processing

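Against sham, 1 of 69 tests of Cyp4 probes was called, Cyp4f14 in the medulla of group A. The count was 2 at an adjusted p under 0.05 with no minimum ratio, which added Cyp4f14 in the medulla of group C. It was 0 without background correction, 0 with the authors' normalized values and 0 when replicate numbers entered as a block, while it was 1 in the other 5 alternatives. Leaving out 1 mouse at a time gave 0 to 1, with 0 for any mouse of groups B and A and for sham replicates 1, 2, 4 and 5. Between irradiated groups, leaving aside the 5 tests of groups C and B in the cortex that chose the family, 0 of 64 tests were called, and 2 at an adjusted p under 0.05 with no minimum ratio, Cyp4b1 in the spleen of groups C and B against group A. The other alternatives and the mice left out gave 0. The kidney differences gave 0 in all 4 alternatives and with any mouse left out. The sham tissues gave 63 to 66 calls where 64 were found, or 63 to 67 with 1 tissue sample of a sham mouse left out. Leaving out all tissues of a sham mouse was not tried there. The Cyp4a31 difference of groups C and B in the cortex ranged from 1.001 to 1.159 with a mouse left out, and no longer passed the call limits without any 1 of the 14 mice, with only the compared groups fitted (1.09) or with the block (1.09). No result changed sign past the call. Same-numbered mice did not deviate together in every pair of any tissue (r -0.238 to 0.136 in the cortex, -0.121 to 0.208 in the medulla, -0.124 to 0.102 in the liver, -0.497 to 0.259 in the lungs, -0.484 to 0.487 in the spleen and -0.403 to 0.678 in thyroid samples), with at most 6 of 18 pairs over 0.1 in a tissue, so the numbers were not read as pairs. Between groups of a tissue, the block changed no call of a Cyp4 probe other than Cyp4f14 in the medulla of group A and the Cyp4a31 difference in the cortex. The array's slide could not be used as a block, since the headers name none. Probes near background, such as Cyp4f14 in the kidney, have small signals over background, which limits their ratios.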
